A study of Mus musculus with 6 samples.

Results

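The mature migratory dendritic cell programme was represented by 10 genes, Fscn1, Cacnb3, Fabp5, Marcksl1, Samsn1, Cd200, Slco5a1, Tmem123, Il15ra and Cd83, which mature, migratory dendritic cells express at raised levels and which are neither co-stimulatory ligands nor chemokines. They were taken by symbol from the 23420 gene rows of the deposited count tables. All 10 had a row, and all 10 were among the 14388 genes with enough reads to be tested. RNA of splenic dendritic cells isolated fresh from mice was compared between 3 libraries of TBK1-DKO mice and 3 of wild type (WT) mice, all of strain C57BL/6. TBK1 is a kinase that phosphorylates interferon regulatory factors downstream of innate immune sensors and that also acts on NF-kB signalling. The labels give the age once as 8 weeks and once as 10 weeks. They do not spell out DKO, name no allele, Cre driver or sorting markers, and do not say whether animals were pooled or whether each library came from its own animal, and the p-values therefore describe the spread among these libraries alone, which may be technical.

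Dendritic cells sample antigen in tissue as immature cells. On maturation they take up less, present more and move along chemokine gradients to the T cell zones, a change driven in large part by NF-kB family factors. In the spleen, where no lymph has to be crossed, the same set of genes marks dendritic cells that have matured in place, also without infection. The set covers the actin cytoskeleton, surface molecules that regulate T cells, a cytokine receptor chain, calcium channel and transport proteins, and a signalling adaptor.

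The TBK1-DKO libraries held 45018389 to 47349648 gene reads and the WT libraries 31077585 to 36145508, so counts were scaled to 1000000 reads (CPM). Libraries TBK1-DKO 2 and WT 1 stood apart from the others of their groups, with a chi-square of 36.4 and 36.5 per degree of freedom over genes between TBK1-DKO 2 and the other TBK1-DKO libraries, and of 12.7 and 14.2 between WT 1 and the other WT libraries, against 2.41 and 2.59 for the remaining pairs. Tbk1 itself was at 82.3 ± 2.69 CPM in TBK1-DKO and 85.0 ± 5.08 CPM in WT (SD, n = 3 each; log2 fold change -0.05, adjusted p = 0.63), and counts over the whole gene do not check an allele that removes only part of it. General dendritic cell genes were abundant in both groups: Cd74 was at 6374 CPM in TBK1-DKO and 6618 CPM in WT, and Flt3, the receptor that sustains dendritic cells, at 149.1 CPM and 148.0 CPM in the same order. Not all such genes were level between the groups, as 5 of 17 markers were lower in TBK1-DKO and 2 higher. Over all genes tested 9.9% were called lower and 13.7% higher. Cst3 was at 765.3 CPM in TBK1-DKO and 955.0 CPM in WT, and Zbtb46 at 35.1 CPM and 27.5 CPM. The calls of Cst3 and Zbtb46 were lost in some fits with a library left out. RNA of other cells was present too, and in bulk RNA fewer cells of a type and less RNA per cell cannot be told apart.

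In the TBK1-DKO libraries 6 of the 10 genes rose, 1 fell and 3 were not called. Those that rose were Slco5a1, Fabp5, Cacnb3, Fscn1, Marcksl1 and Cd83, by 1.38- to 1.95-fold, and Cd200 fell to 0.829 of its WT level. Samsn1, Tmem123 and Il15ra did not pass the test. Genes were called at an adjusted p under 0.05 by edgeR's quasi-likelihood test, corrected over all 14388 genes. Of all genes tested 23.6% were called, 13.7% higher in TBK1-DKO and 9.9% lower, and of the 9585 genes with a mean of at least 10 CPM, which include all 10, 14.3% were called higher. The median log2 fold change was 0.51 over the 10 genes and 0.00 over all genes tested. In 6 of the 10 every TBK1-DKO library lay above every WT library and in 2 below, where the shares over all genes were 21.5% and 19.5%. Summed over the 10 genes, the level was 1694, 1728 and 1662 CPM in TBK1-DKO 1, 2 and 3, against 1372, 1361 and 1403 CPM in WT 1, 2 and 3.

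**Figure D1:**
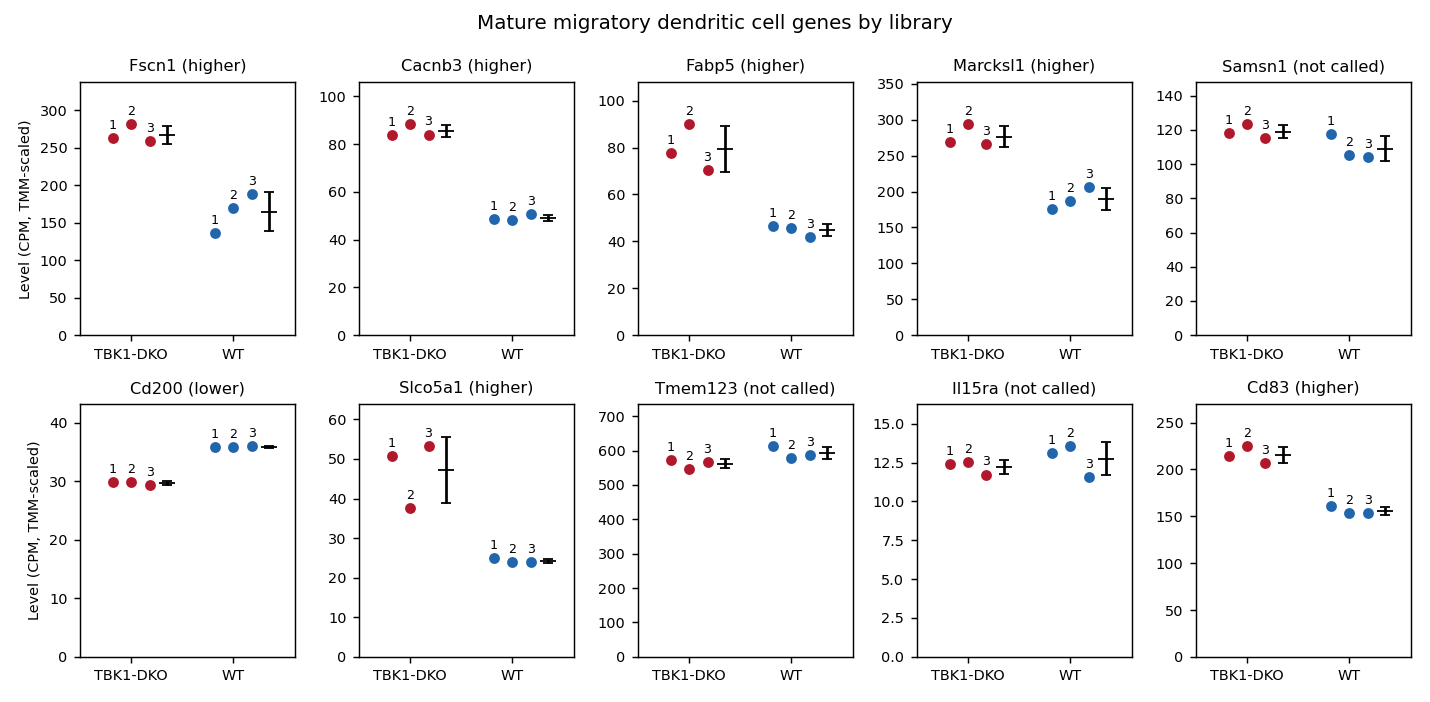
Level of each of the 10 genes in every library (points, numbered by replicate; vertical axis in CPM, starting at 0), with TBK1-DKO left of WT and the mean ± SD of 3 libraries as bars. The groups lie apart with TBK1-DKO above in Fscn1, Cacnb3, Fabp5, Marcksl1, Slco5a1 and Cd83 and below in Cd200 and, by a small margin, Tmem123.

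**Figure D2:**
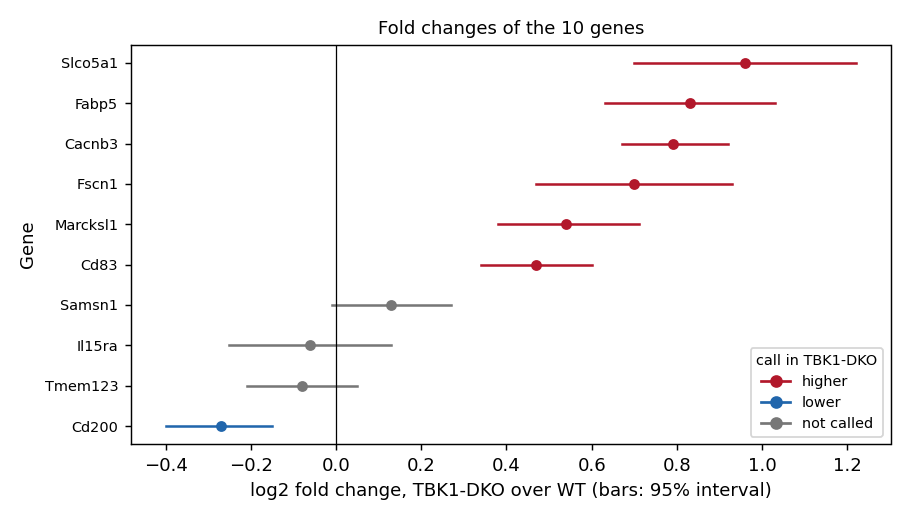
Log2 fold change of TBK1-DKO over WT for each of the 10 genes (points) with its 95% interval (bars), coloured by call. Slco5a1 stands at 0.96 at the top and Cd200 at -0.27 at the bottom, and the intervals of Samsn1, Tmem123 and Il15ra include 0.

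RefSeq's promoter table (GRCm38.p6) held 10 windows for 7 of the 10 genes, each from 250 bases before to 50 bases after a transcription start. The 250 bases before the start are shown for a pair of genes that rose, Fscn1 and Marcksl1, for Cd200, which fell, and for Samsn1, which was not called, so that genes of the programme that moved differently can be compared. Capitals mark matches on either strand to any of the 5 motifs searched.
Fscn1, chr5:142960105-142960354, plus strand: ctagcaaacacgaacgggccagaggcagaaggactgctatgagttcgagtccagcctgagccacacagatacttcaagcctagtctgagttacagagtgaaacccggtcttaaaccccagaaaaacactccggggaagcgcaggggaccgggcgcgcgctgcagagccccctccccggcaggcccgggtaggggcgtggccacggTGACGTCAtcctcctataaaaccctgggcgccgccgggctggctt
Marcksl1, chr4:129513331-129513580, plus strand: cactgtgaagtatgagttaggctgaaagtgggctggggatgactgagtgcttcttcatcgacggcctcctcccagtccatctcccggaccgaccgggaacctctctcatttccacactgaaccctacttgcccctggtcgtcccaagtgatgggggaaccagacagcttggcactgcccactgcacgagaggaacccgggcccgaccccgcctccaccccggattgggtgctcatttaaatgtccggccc
Cd200, chr16:45409054-45409303, minus strand: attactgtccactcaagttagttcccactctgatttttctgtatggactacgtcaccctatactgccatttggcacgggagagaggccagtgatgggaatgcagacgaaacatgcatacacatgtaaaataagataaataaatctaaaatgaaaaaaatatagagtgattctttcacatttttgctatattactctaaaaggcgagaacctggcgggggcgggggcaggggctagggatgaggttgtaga
Samsn1, chr16:75909267-75909516, minus strand: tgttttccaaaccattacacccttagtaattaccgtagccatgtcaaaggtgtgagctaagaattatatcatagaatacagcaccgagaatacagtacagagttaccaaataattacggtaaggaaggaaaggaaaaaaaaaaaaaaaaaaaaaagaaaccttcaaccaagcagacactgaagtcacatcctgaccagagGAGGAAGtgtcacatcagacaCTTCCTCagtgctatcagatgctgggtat
In the Fscn1 window the cAMP response element TGACGTCA began 45 bases before the start, and 1.79% of the 32851 promoter windows held it. The Samsn1 window held the PU.1 core GAGGAAG 50 bases before the start and its reverse complement 29 bases before it, and the motif was present in 13.6% of all windows and in 3 of the 10 member windows. The reverse complement was also in the Cd200 window, from base 23 after the start and so outside the bases shown. An Il15ra window held it 213 bases before the start. The AP-1 motif TGANTCA was found in 1 member window, of Il15ra, and in 7.81% of all windows. The kappaB consensus and the interferon response motif (GAAA, any 2 bases, GAAA) matched none of the 10 member windows and 4.51% and 3.44% of all windows. No matches in the member windows overlapped each other. These are matches of letters and not measured binding sites.

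Of the genes of the actin cytoskeleton, Fscn1 encodes fascin, which bundles actin filaments into the long protrusions of mature dendritic cells. The gene lies on chromosome 5, 142960343 to 142973185 (GRCm38, GENCODE M21), and its promoter is shown above. Fscn1 was measured at 262.9, 280.9 and 258.3 CPM in TBK1-DKO 1, 2 and 3, against 136.5, 169.4 and 187.6 CPM in WT 1, 2 and 3. All TBK1-DKO libraries were above all WT libraries, and WT 1 was the lowest of the 6. The means were 267.4 ± 11.9 CPM and 164.5 ± 25.9 CPM (SD, n = 3 each), which is 0.70 on the log2 scale with an SE of 0.10, a 95% interval of 0.47 to 0.93 and an adjusted p of 7.1e-04. Relative to its mean, Fscn1 varied more among the WT libraries than the other 9 genes did, with WT 1 0.39 lower on the log2 scale than the mean of WT 2 and 3. With WT 1 and TBK1-DKO 2 both left out the log2 fold change was 0.53, still called.

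Marcksl1 encodes a relative of MARCKS, a protein kinase C substrate that binds actin and the plasma membrane. It was measured at 269.1, 293.6 and 266.8 CPM in TBK1-DKO 1, 2 and 3, against 175.7, 186.5 and 206.5 CPM in WT 1, 2 and 3. The order of the WT libraries was that of Fscn1, WT 1 lowest and WT 3 highest, and the groups did not overlap. Marcksl1 rose by 0.54 on the log2 scale, with an SE of 0.07, a 95% interval of 0.38 to 0.71 and an adjusted p of 4.1e-04. Both transcripts are rich in G and C, at 60.6% for Fscn1 and 58.2% for Marcksl1. With trends in length and GC content taken out the log2 fold changes were 0.62 and 0.49, both still called. Marcks itself, at 428.9 ± 14.2 CPM in TBK1-DKO and 500.9 ± 5.17 CPM in WT, fell with a log2 fold change of -0.22 (adjusted p = 0.016), and this call did not hold when TBK1-DKO 1, TBK1-DKO 3, WT 2 or WT 3 was left out (adjusted p = 0.053 to 0.085). Actb, the actin gene, was not called, at 6173 CPM in TBK1-DKO and 5871 CPM in WT.

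Among surface molecules, Cd83 encodes a maturation marker that protects MHC class II and CD86 on the cell surface from ubiquitin-dependent removal. Its level was 214.7, 224.8 and 206.9 CPM in TBK1-DKO 1, 2 and 3, against 160.5, 153.0 and 153.3 CPM in WT 1, 2 and 3. The libraries of each group lay close together and the groups lay apart. Cd83 thus rose by 0.47 on the log2 scale (SE 0.06), with a 95% interval from 0.34 to 0.60 and an adjusted p of 2.2e-04. Under the 17 alternative settings it ranged from 0.42 to 0.50 and stayed called in each.

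Cd200, whose product restrains myeloid cells through the receptor CD200R1, was the only one of the 10 genes that was called lower. Its level was 29.9, 29.9 and 29.4 CPM in TBK1-DKO 1, 2 and 3, against 35.9, 35.8 and 36.0 CPM in WT 1, 2 and 3. The libraries within each group differed by less than 1 CPM, and every TBK1-DKO library lay below every WT library. Its log2 fold change was -0.27 (SE 0.06) with a 95% interval from -0.40 to -0.15 and an adjusted p of 0.0061, and the call held under all 17 alternatives. Cd200r1, the gene of the receptor, fell as well, at 18.3 ± 0.931 CPM in TBK1-DKO and 23.5 ± 1.56 CPM in WT (SD, n = 3 each), a log2 fold change of -0.36 (adjusted p = 0.007). B and T cells can also express Cd200, and 6 of 12 B cell markers and 6 of 10 T cell markers fell in the same libraries, with none higher. Summed B cell markers ranged from 3810 to 3920 CPM in TBK1-DKO and from 4450 to 4590 CPM in WT, and their part in the fall of Cd200 was not tested.

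Tmem123, which encodes the mucin-like membrane protein porimin, was the most abundant of the 10 per length of transcript. It had 574.0, 547.5 and 565.5 CPM in TBK1-DKO 1, 2 and 3, against 612.8, 579.5 and 587.3 CPM in WT 1, 2 and 3. The TBK1-DKO libraries were all below the WT libraries, but by a margin smaller than the SD within either group. The log2 fold change of -0.08 had a 95% interval of -0.21 to 0.05 (adjusted p = 0.39).

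Il15ra encodes the receptor chain with which dendritic cells display interleukin-15 to NK cells and CD8+ T cells. Its 388 to 587 reads per library were the fewest of the 10 genes. It was measured at 12.4, 12.5 and 11.7 CPM in TBK1-DKO 1, 2 and 3, against 13.1, 13.6 and 11.5 CPM in WT 1, 2 and 3. The groups overlapped, and the log2 fold change of -0.06 (SE 0.08) had a 95% interval from -0.25 to 0.13 and an adjusted p of 0.66. The cytokine gene Il15 was not called either, at 12.9 ± 0.715 CPM in TBK1-DKO and 11.1 ± 0.797 CPM in WT (log2 fold change 0.22, adjusted p = 0.088). Il2rb, the chain through which the displayed cytokine signals in the receiving cell, fell to 105.0 ± 4.22 CPM in TBK1-DKO, against 151.3 ± 7.34 CPM in WT (log2 fold change -0.53, adjusted p = 1.6e-04). NK cells carry that chain, and 5 of 6 tested NK cell markers fell too, with summed levels of 144 to 155 CPM in TBK1-DKO and 201 to 234 CPM in WT; their part in the Il2rb value was not tested.

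Of the genes for calcium channel and transport proteins, Cacnb3 encodes an auxiliary beta subunit of voltage-gated calcium channels. It was at 84.0, 88.3 and 84.1 CPM in TBK1-DKO 1, 2 and 3, against 48.8, 48.3 and 50.7 CPM in WT 1, 2 and 3. TBK1-DKO 2 was the highest library and WT 1 lay between the other WT libraries, and the gap between the groups was far wider than the spread within either. Without TBK1-DKO 2 the log2 fold change was 0.75, still called. Cacnb3 rose by 0.79 on the log2 scale (SE 0.05), with a 95% interval from 0.67 to 0.92 and an adjusted p of 6.9e-06, and by p-value it ranked 95 of all genes tested, ahead of the other 9. Its interval lay wholly above those of Cd83, Samsn1, Cd200, Tmem123 and Il15ra. The related beta subunit genes Cacnb1, Cacnb2 and Cacnb4 were not called, with log2 fold changes of -0.12, -0.19 and 0.08. The pore subunit gene Cacna1s rose at a low level, with 10.8 ± 1.54 CPM in TBK1-DKO and 7.47 ± 0.412 CPM in WT (log2 fold change 0.53, adjusted p = 0.0069), while Cacna1d was at 11.4 CPM and 12.3 CPM in the same order and was not called.

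Slco5a1, a member of the organic anion transporter family whose substrates are poorly known, had the largest fold change of the 10. Its level was 50.7, 37.7 and 53.2 CPM in TBK1-DKO 1, 2 and 3, against 24.9, 24.0 and 23.9 CPM in WT 1, 2 and 3. TBK1-DKO 2 was clearly lower than the other TBK1-DKO libraries, though still above all WT libraries. Slco5a1 rose by 0.96 on the log2 scale (SE 0.12), with a 95% interval from 0.70 to 1.22 and an adjusted p of 2.2e-04. The principal transcript is 8509 bases long, the longest of the 10. With the length and GC trends taken out the log2 fold change was 1.01, and with TBK1-DKO 2 and WT 1 both left out it was 1.11. The tested relatives went both ways: Slco4c1 rose with a log2 fold change of 1.35 at a low level of 2.98 ± 0.664 CPM in TBK1-DKO and 1.18 ± 0.186 CPM in WT, Slco2b1 fell by 0.29 and Slco3a1 by 0.36 on the log2 scale, and Slco2a1 and Slco4a1 were not called.

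Fabp5 encodes a lipid chaperone that carries fatty acids within the cell. Its levels were 77.8, 89.8 and 70.6 CPM in TBK1-DKO 1, 2 and 3, against 46.6, 45.8 and 41.7 CPM in WT 1, 2 and 3. Here TBK1-DKO 2 was the highest library, the reverse of its place for Slco5a1, and at 987 bases the principal Fabp5 transcript is the shortest of the 10. The rise was 0.83 on the log2 scale (SE 0.09), with a 95% interval from 0.63 to 1.03 and an adjusted p of 1.1e-04, and it was 0.85 with the length and GC trends taken out. Fabp4, the family member of macrophages and fat cells, rose at a level of 7.36 ± 0.360 CPM in TBK1-DKO and 5.48 ± 0.160 CPM in WT (log2 fold change 0.43, adjusted p = 0.0065). Fabp1 was near 1 CPM and not called, and Fabp2, Fabp3, Fabp6 and Fabp7 had too few reads to be tested.

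Samsn1 encodes an adaptor of blood cells that restrains B cell activation. It was measured at 118.4, 123.2 and 115.5 CPM in TBK1-DKO 1, 2 and 3, against 117.5, 105.1 and 104.4 CPM in WT 1, 2 and 3. WT 1 lay among the TBK1-DKO libraries, so the groups overlapped. The log2 fold change of 0.13 (SE 0.06, 95% interval -0.01 to 0.27) was not called (adjusted p = 0.19). It was called with the length and GC trends taken out, at 0.17 (adjusted p = 0.003), and with TBK1-DKO 2 and WT 1 left out, at 0.15 (adjusted p = 1.1e-04). The latter fit leaves out the libraries that stood apart, which narrows the spread within groups by selection. Of the relatives of Samsn1, Sash3 was not called, and Sash1 fell with a log2 fold change of -0.32 (adjusted p = 0.02), a call lost without WT replicate 1 (adjusted p = 0.054).

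Levels were compared between the genes as CPM per kilobase of the principal transcript (RPKM). In TBK1-DKO the order was Tmem123 at 193 ± 4.66, Marcksl1 at 172 ± 9.26, Fscn1 at 100 ± 4.46, Cd83 at 87.0 ± 3.62, Fabp5 at 80.4 ± 9.85, Samsn1 at 63.0 ± 2.05, Cacnb3 at 34.5 ± 0.993, Cd200 at 12.7 ± 0.122, Il15ra at 7.64 ± 0.267 and Slco5a1 at 5.55 ± 0.98 RPKM (SD, n = 3). In WT it was Tmem123 at 204 ± 6.00, Marcksl1 at 118 ± 9.76, Cd83 at 62.8 ± 1.73, Fscn1 at 61.5 ± 9.69, Samsn1 at 57.7 ± 3.91, Fabp5 at 45.3 ± 2.65, Cacnb3 at 19.9 ± 0.504, Cd200 at 15.3 ± 0.0449, Il15ra at 7.96 ± 0.664 and Slco5a1 at 2.85 ± 0.065 RPKM. The libraries of Cd83 and Fabp5 in TBK1-DKO overlapped, as did those of Cd83, Fscn1 and Samsn1 in WT, so these neighbours did not differ beyond their spread. The gene at the top of the range, Tmem123, was not called, and the one at the bottom, Slco5a1, had the largest fold change of the 10.

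A wider list of 40 other genes of mature dendritic cells was examined beside these 10, of which 39 had enough reads to be tested. In TBK1-DKO 20 of them rose, 2 fell and 17 were not called, with a median log2 fold change of 0.25. Over all genes tested 13.7% were called higher and 9.9% lower. The wider list was chosen with earlier results of these data known. H2-M2, a non-classical MHC class I gene of activated dendritic cells, was at 44.5, 42.8 and 42.7 CPM in TBK1-DKO 1, 2 and 3, against 18.8, 19.5 and 19.3 CPM in WT 1, 2 and 3 (log2 fold change 1.17, SE 0.06, adjusted p = 1.5e-06). It had the largest fold change on this list. Lad1, which encodes ladinin, an anchoring filament protein of epithelia, rose with a log2 fold change of 1.14 (SE 0.09), and Mreg, a gene for the organelle trafficking protein melanoregulin, with one of 0.86 (SE 0.05). The adenylyl cyclase gene Adcy6 rose by 1.51-fold, the annexin gene Anxa3 by 1.44-fold and Traf1, an adaptor of TNF receptors, by 1.47-fold. Relb, an NF-kB subunit that dendritic cell maturation requires, was at 214.9 ± 15.4 CPM in TBK1-DKO and 143.5 ± 12.4 CPM in WT (log2 fold change 0.58, SE 0.08, adjusted p = 4.3e-04), with WT 1 again the lowest library. The calls of these 7 genes held whichever library was left out.

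Ccr7, the chemokine receptor that guides mature dendritic cells, was not called: its level was 132.6, 152.0 and 136.2 CPM in TBK1-DKO 1, 2 and 3, against 134.5, 138.9 and 130.7 CPM in WT 1, 2 and 3. The groups overlapped, and the log2 fold change of 0.06 had a 95% interval of -0.09 to 0.20 (adjusted p = 0.57). Other genes of the list that were not called included Birc3, an inhibitor of cell death, at 219.0 CPM in TBK1-DKO and 215.5 CPM in WT, and the NF-kB subunit gene Nfkb2, at 231.1 CPM and 216.3 CPM in the same order. The 2 genes that fell were Stat4, a transducer of interleukin-12 signals, with a log2 fold change of -0.23, and Laptm4b, a lysosomal membrane protein gene, with one of -0.36. Stat4 was not called when TBK1-DKO 1 or TBK1-DKO 3 was left out (adjusted p = 0.067 and 0.057 in that order), nor was Laptm4b when either of these, WT 2 or WT 3 was left out (adjusted p = 0.065 to 0.085). Without WT replicate 2 the number of genes on the list that rose was 13 in place of 20. Over all genes it was 1336 in place of 1978 in that fit. The number on the list that fell was 0 without TBK1-DKO replicate 1 or 3, 1 without WT replicate 2 or 3, and 4 without TBK1-DKO replicate 2. Over all genes the number lower, 1424 as reported, was 985 without TBK1-DKO replicate 1 and 1025 without TBK1-DKO replicate 3. It was 972 without WT replicate 2, 1043 without WT replicate 3 and 2082 without TBK1-DKO replicate 2.

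**Figure D3:**
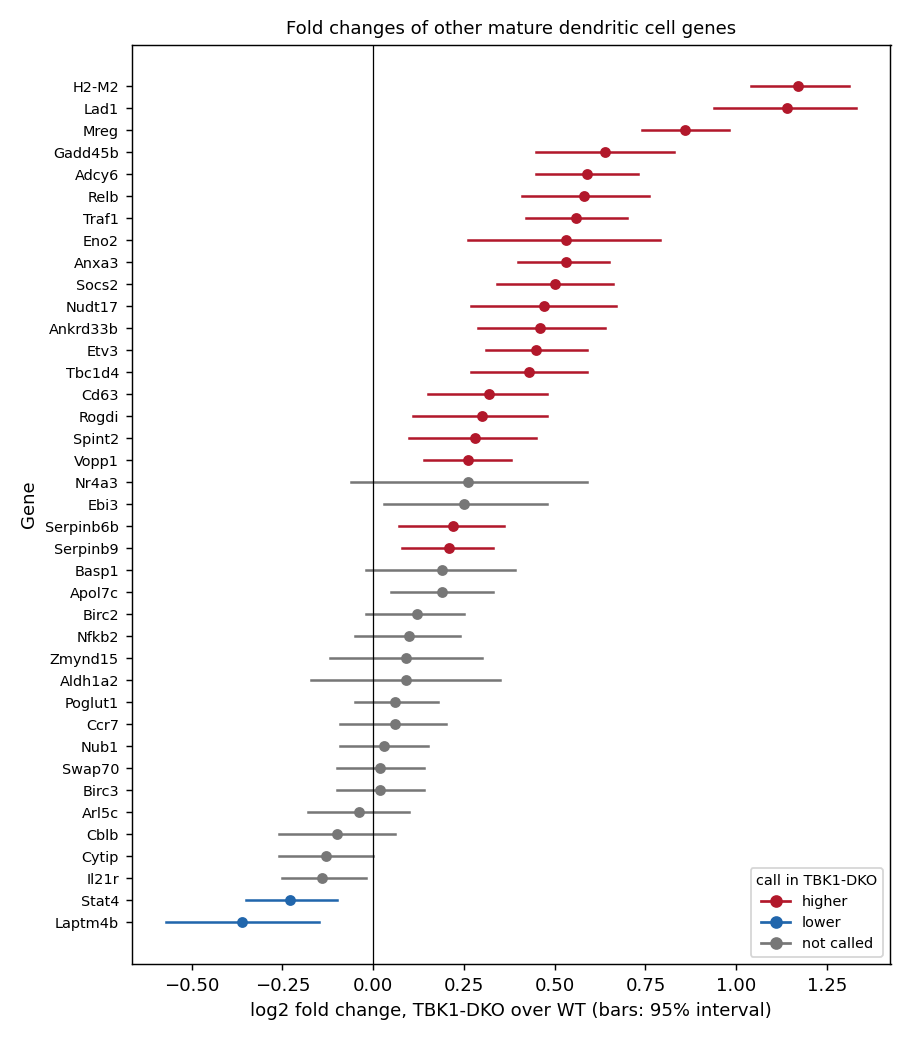
Log2 fold change of TBK1-DKO over WT (points) with its 95% interval (bars) for the 39 tested genes of the wider list, ordered by fold change and coloured by call. The 20 genes that rose run up to H2-M2 at 1.17, while Ccr7, at 0.06, is among the genes that were not called and the 2 genes that fell, Stat4 and Laptm4b, are at the bottom.

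Other cell types and states changed in the same libraries, where 13.7% of all genes tested were called higher and 9.9% lower. Of the proliferation genes 14 of 14 rose, with summed levels of 2510 to 2860 CPM in TBK1-DKO and 1530 to 1750 CPM in WT. All 9 plasma cell markers rose (2340 to 2560 CPM in TBK1-DKO and 1460 to 1610 CPM in WT), as did 13 of 14 neutrophil markers (6340 to 7290 CPM and 2680 to 2950 CPM), 9 of 9 tested erythroid markers (3560 to 3850 CPM and 2040 to 2290 CPM) and 6 of 7 basophil and mast cell markers (78.9 to 81.4 CPM and 46.9 to 48.6 CPM). Fabp5, Marcksl1 and Samsn1 are not restricted to dendritic cells, and bulk RNA does not show which cells the RNA of the rest came from. The part of these other cells in the values of the 10 genes was not tested. Of the plasmacytoid dendritic cell markers 7 of 8 fell (811 to 843 CPM in TBK1-DKO and 1080 to 1100 CPM in WT). Among macrophage and monocyte markers 8 of 11 fell and 1, Ly6c2, rose. All 11 summed to 3920 to 4090 CPM in TBK1-DKO and 5910 to 5990 CPM in WT. The Ly6c2 call was lost when any library but WT 1 was left out. Of the T cell markers 6 of 10 fell (488 to 506 CPM in TBK1-DKO and 572 to 586 CPM in WT). The endothelial and stromal markers, relevant because such cells can express Fscn1 and Cd200, summed to 183 to 190 CPM in TBK1-DKO and 216 to 229 CPM in WT, with 2 of 9 tested higher and 3 lower; Ccl21a had 0 reads in all 6 libraries, as had Klra8 among the NK cell markers. Among these markers 1 was higher without TBK1-DKO 1, TBK1-DKO 3 or WT 1, and 1 was lower without WT 3. Of the genes induced by handling of cells 10 of 14 fell and 1, Ier3, rose. All 14 summed to 2410 to 2520 CPM in TBK1-DKO and 3210 to 3450 CPM in WT. The Ier3 call was lost without TBK1-DKO 1, TBK1-DKO 2, WT 1 or WT 2.

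Markers of dendritic cells in general changed in both directions, 2 of 17 higher, 5 lower and 10 not called. Their median log2 fold change was -0.05. Over all genes tested 13.7% were called higher and 9.9% lower. The number of markers lower was 3 without TBK1-DKO 1, TBK1-DKO 3 or WT 2. The number of markers higher was 1 without TBK1-DKO 1 or WT 3. Without both TBK1-DKO 2 and WT 1, 10 markers were lower and 5 higher. In that fit 24.2% of all genes were called higher, and 3397 of 14456 genes were called lower. The summed level of the 17 markers was 17200 to 19500 CPM in TBK1-DKO and 17700 to 19700 CPM in WT, so the groups overlapped. Cd74, H2-Aa, H2-Eb1 and H2-Ab1 made up most of that sum, at 6374, 3128, 2591 and 2222 CPM in TBK1-DKO. The sum therefore says little about the other markers. By gene, all TBK1-DKO libraries lay above all WT libraries in 3 of the 17 and below in 6, where the shares over all genes were 21.5% and 19.5%. Esam, a marker of a subset of type 2 dendritic cells, rose with a log2 fold change of 0.75 (adjusted p = 2.8e-04). Clec9a and Xcr1, markers of type 1 dendritic cells, fell with log2 fold changes of -0.74 (adjusted p = 1.5e-04) and -0.48 (adjusted p = 4.0e-04). Among other genes used to mark these subsets, Irf8 fell with a log2 fold change of -0.32 (adjusted p = 0.0051). The Irf8 call held whichever library was left out. Batf3, Sirpa and Irf4 were not called, with log2 fold changes of 0.19, -0.11 and 0.06 in that order. The part of dendritic cell subsets in the values of the 10 genes was not tested.

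**Figure D4:**
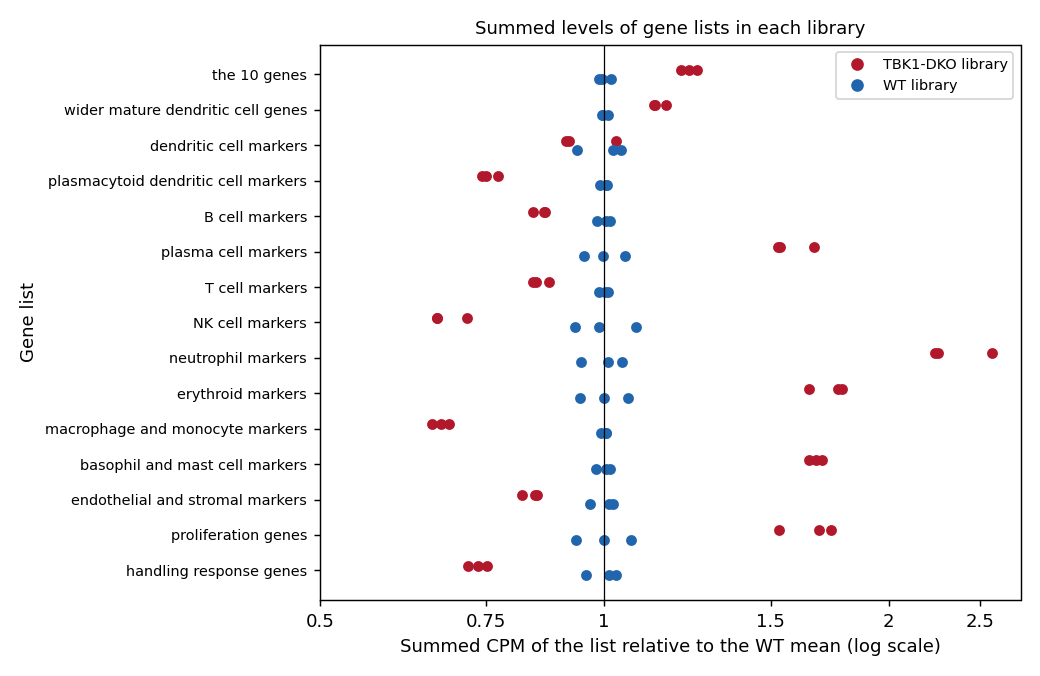
Summed CPM of each gene list in every library, divided by the WT mean of that list (log scale), with TBK1-DKO libraries drawn above WT libraries in each row. The 10 genes and the wider list lie above 1 in all TBK1-DKO libraries, general dendritic cell markers overlap between groups, and neutrophil markers lie farthest to the right.

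Over the 17 alternatives the log2 fold change of Slco5a1 ranged from 0.87 to 1.11, that of Fabp5 from 0.71 to 0.91, that of Cacnb3 from 0.71 to 0.81, that of Fscn1 from 0.53 to 0.79 and that of Marcksl1 from 0.44 to 0.60. Cd200 ranged from -0.30 to -0.24. Each of these values was called. Tmem123 (-0.11 to -0.04) and Il15ra (-0.14 to -0.03) were not called under any of them.

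**Figure D5:**
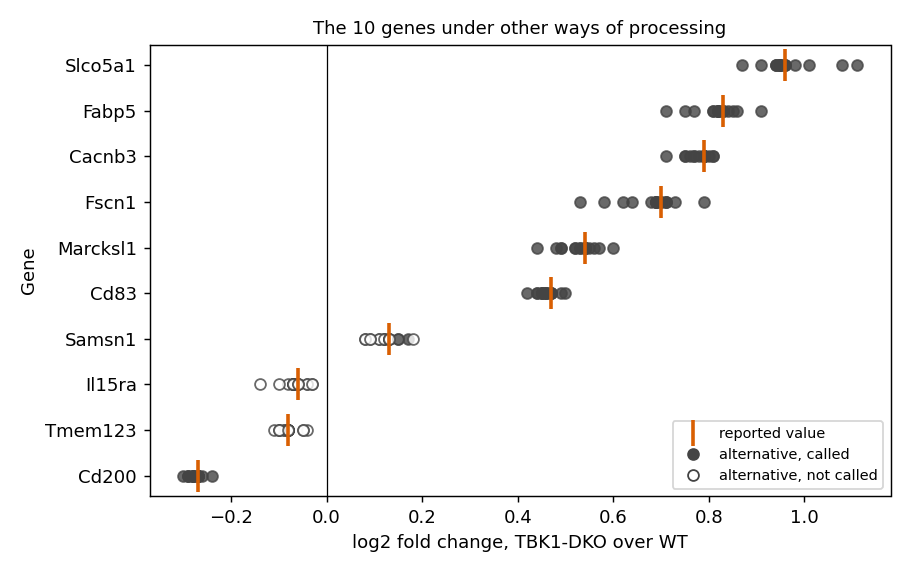
Log2 fold change of TBK1-DKO over WT for each of the 10 genes as reported (orange bars) and under 17 alternative settings (circles, filled where called). Of the 10 genes only Samsn1 has both filled and open circles, and no gene called as reported lost its call.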

How the data were processed

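RNA-seq of 6 libraries, 3 per group, was analysed; groups and replicate numbers came from the sample titles. Each deposited file held raw read counts for every gene symbol, made by the authors with TopHat, TopHat2, HTSeq and DESeq2 among the tools and the mm10 build, per the submitters' processing notes; their versions, the annotation and the strand setting were not stated there. Reads of antisense or near-identical genes, such as Marcksl1 and its pseudogenes, may therefore not be separable. Summary rows that name no gene (8.2% to 10.7% of records) were left out of library sizes and tests. Genes were kept by filterByExpr (minimum count 10) and compared with edgeR 4.0.16 in R 4.3.3: TMM factors (0.996 to 1.012), robust dispersions, quasi-likelihood F test without covariates, Benjamini-Hochberg adjustment over 14388 genes, threshold 0.05. CPM use TMM-scaled library sizes; standard errors come from the F statistic. The test was checked on simulated counts. The members, lists and tests were chosen with earlier results of these data known. Positions and transcript lengths came from GENCODE M21, with 21777 of 23420 symbols matched by name and 1275 by a synonym; the principal transcript is the APPRIS one. Genes named were the 10, the wider-list genes with the smallest p plus Ccr7 and Relb, part of the partners and relatives above 1 CPM, and markers. Birc3, Nfkb2, Esam, Clec9a, Xcr1, Batf3, Sirpa, Irf4, Irf8, Flt3, Cst3, Zbtb46, H2-Ab1, Fabp1, Ly6c2, Ier3 and the genes at 0 or with too few reads were added after their values were seen. The 17 alternatives were DESeq2 1.42.0, RLE factors, upper-quartile factors, a minimum count of 50, no filter, the replicate block, non-robust dispersions, length and GC offsets, each library left out, TBK1-DKO 2 and WT 1 left out, TBK1-DKO counts thinned to WT depth, and a threshold of 0.01. Figures used matplotlib 3.10.9.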

Additional observations from a re-analysis of the deposited data

How the results depend on the processing

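The 6 rises and the fall of Cd200 held under all 17 alternatives; 7 of the 10 genes were called higher, with Samsn1 added, under the length and GC offsets and without TBK1-DKO 2 and WT 1, settings in which the share of all genes called higher was 19.4% and 24.2%, against 13.7% as reported. On the wider list, leaving out 1 library at a time gave 13 to 19 genes higher and 0 to 4 lower, leaving out TBK1-DKO 2 and WT 1 together gave 5 lower, and a threshold of 0.01 gave 0 lower, with 7 wider-list calls lost by the stricter threshold. Over all genes, 1978 were called higher and 1424 lower. Leaving out 1 library at a time gave 1336 to 2270 higher and 972 to 2082 lower over all genes. The length and GC offsets gave 2786 higher and 2336 lower. Without TBK1-DKO 2 and WT 1 the counts were 3500 higher and 3397 lower, and at the threshold of 0.01 they were 1270 higher and 726 lower. In the fit without TBK1-DKO 2 and WT 1, Actb, not called as reported (log2 fold change 0.07), was called lower, at -0.07. Of the B cell markers 10 of 12 were lower in that fit and with the offsets. The cause of these changes was not tested, except that fewer calls follow from a stricter threshold by construction. TBK1-DKO 2 and WT 1 were the libraries that stood apart from their groups, so leaving both out narrows the spread within groups by selection. The added calls and lower adjusted p-values of that fit are therefore no independent support.

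The labels name nothing that same-numbered libraries share beyond the number. Their deviations from the group means correlated at 0.18, 0.15 and -0.06 for numbers 1, 2 and 3. TBK1-DKO 1 and TBK1-DKO 2 correlated best with the WT library of the same number, while TBK1-DKO 3 correlated best with WT 1. Whether the numbers mark a shared batch was not tested. With the replicate number as a block 4086 genes were called in place of 3402, and the 10 genes gave the same 6 higher and 1 lower. Depth limits Il15ra most, with 388 to 587 reads.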

Other observations

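Dividing each gene by Ccr7 within the same library removes the scaling between libraries; the ratio was chosen after the values were seen. Fscn1 reads were 1.98, 1.85 and 1.90 times those of Ccr7 in TBK1-DKO 1, 2 and 3, against 1.02, 1.22 and 1.44 times in WT 1, 2 and 3, with no length correction. Relb reads were 1.53, 1.53 and 1.54 times those of Ccr7 in TBK1-DKO 1, 2 and 3, against 0.968, 1.05 and 1.18 times in WT 1, 2 and 3. The 3 TBK1-DKO libraries lay closer together in this ratio than the WT libraries did, for both genes. Marcksl1 and Samsn1 also had the smaller SD in TBK1-DKO. The rest of the 10 genes had it in WT, such as Fabp5 with an SD of 0.0139 in WT and 0.0406 in TBK1-DKO. H2-M2 averaged 0.310 ± 0.0271 of Ccr7 in TBK1-DKO and 0.143 ± 0.00413 in WT (SD, n = 3 each). Of the 10 genes, 6 had ratios to Ccr7 that were higher in every TBK1-DKO library than in every WT library, and Cd200 had lower ones throughout, 0.213 ± 0.0149 in TBK1-DKO and 0.267 ± 0.00882 in WT. Of the 14387 genes tested besides Ccr7, the 10 included, divided by it in the same way, 13.5% had ratios that were higher in every TBK1-DKO library and 22% lower ones. Tmem123, whose CPM did not overlap between groups, had overlapping ratios, at 4.33, 3.60 and 4.15 in TBK1-DKO 1, 2 and 3, against 4.56, 4.17 and 4.49 in WT 1, 2 and 3.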
